A study of Mus musculus with 16 samples.

Results

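The 38 genes described here are enzymes, carriers and regulators of fatty acid and cholesterol metabolism, listed by name for this work. All 38 were present among the 17125 genes shared by the deposited tables of fat pad and liver tumors. They comprise 3 regulators of fat oxidation and storage, 7 genes of fatty acid uptake, binding and activation, 2 of the carnitine shuttle, 9 enzymes of beta-oxidation and 1 of ketone bodies. The remaining genes are 6 of fatty acid synthesis, 2 of triglyceride synthesis, 3 lipases and 5 of sterol synthesis and its control.

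Poly(A) RNA was sequenced from tumors of 4T1 cells, a carcinoma line from the mouse mammary gland and a common model of triple-negative disease, grown in wild-type female BALB/c mice 6 weeks old. The series compared tumors of the mammary fat pad, labelled subcutaneous (SC), with tumors made by injection directly under the capsule of the left liver lobe, before and after paclitaxel, a drug that stabilises microtubules. The 16 libraries formed 4 groups, namely 3 untreated fat pad tumors (pre_SC), 5 untreated liver tumors (pre_Liver), 3 treated fat pad tumors (post_SC) and 5 treated liver tumors (post_Liver). Fat pad tumors were started from 400000 cells and liver tumors from 200000 cells, so the effects of site and of the number of cells implanted cannot be told apart. Tumors grew for 15 days, and treated mice received 10 mg/kg of paclitaxel into the peritoneum 5 times per week for 2 weeks, with PBS given to controls. The labels do not say whether the untreated tumors were PBS controls or were taken before dosing, so treatment and tumor age cannot be told apart. They do not say either whether each library came from its own mouse, so p-values measure the spread between libraries. RNA came from cells of digested and frozen tumor tissue, which can hold host cells beside the carcinoma cells.

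Long-chain fatty acids are taken up, bound by carrier proteins and activated to acyl-CoA. They enter mitochondria through the carnitine shuttle and are broken down by beta-oxidation, and the liver turns part of the product into ketone bodies. Fatty acid synthesis runs the other way from cytosolic citrate, and sterol synthesis starts from the same acetyl-CoA. Both are driven by the SREBP transcription factors, while PPARα drives oxidation genes in hepatocytes. Tumor cells often make their own fatty acids and sterols, whereas hepatocytes and adipocytes express many of the same enzymes at high levels.

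Levels are given as TPM (transcripts scaled to a common total) computed over the shared genes. This scale was used because the fat pad and liver tables were normalized separately. The sequencing depth is unknown. Epithelial carcinoma markers were present in every library. Their summed level was 4784 to 5606 TPM in the fat pad tumors and 585 to 3950 TPM in the liver tumors. The summed level of 19 hepatocyte markers was 40517 to 168170 TPM in untreated and 4049 to 109300 TPM in treated liver tumors, against 91.0 to 386 TPM in fat pad tumors. Treated liver replicates 2 and 3, the libraries lowest in hepatocyte markers, were closely alike, since 0.7% of 13705 genes differed more than 2-fold between them, against 6.7% to 39.3% for the other pairs of treated liver libraries. Set against the liver and fat pad tables, the authors' table of untreated libraries was shifted by a constant per gene. Liver replicates 4 and 5 carried a constant different from that of the other untreated libraries. It was read here as a batch constant, a reading inferred from the values and not from a label. This untreated pair was also closely alike, as 1.7% of the genes differed more than 2-fold, against 4.08% to 46.4% for the other untreated liver pairs.

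**Figure D1:**
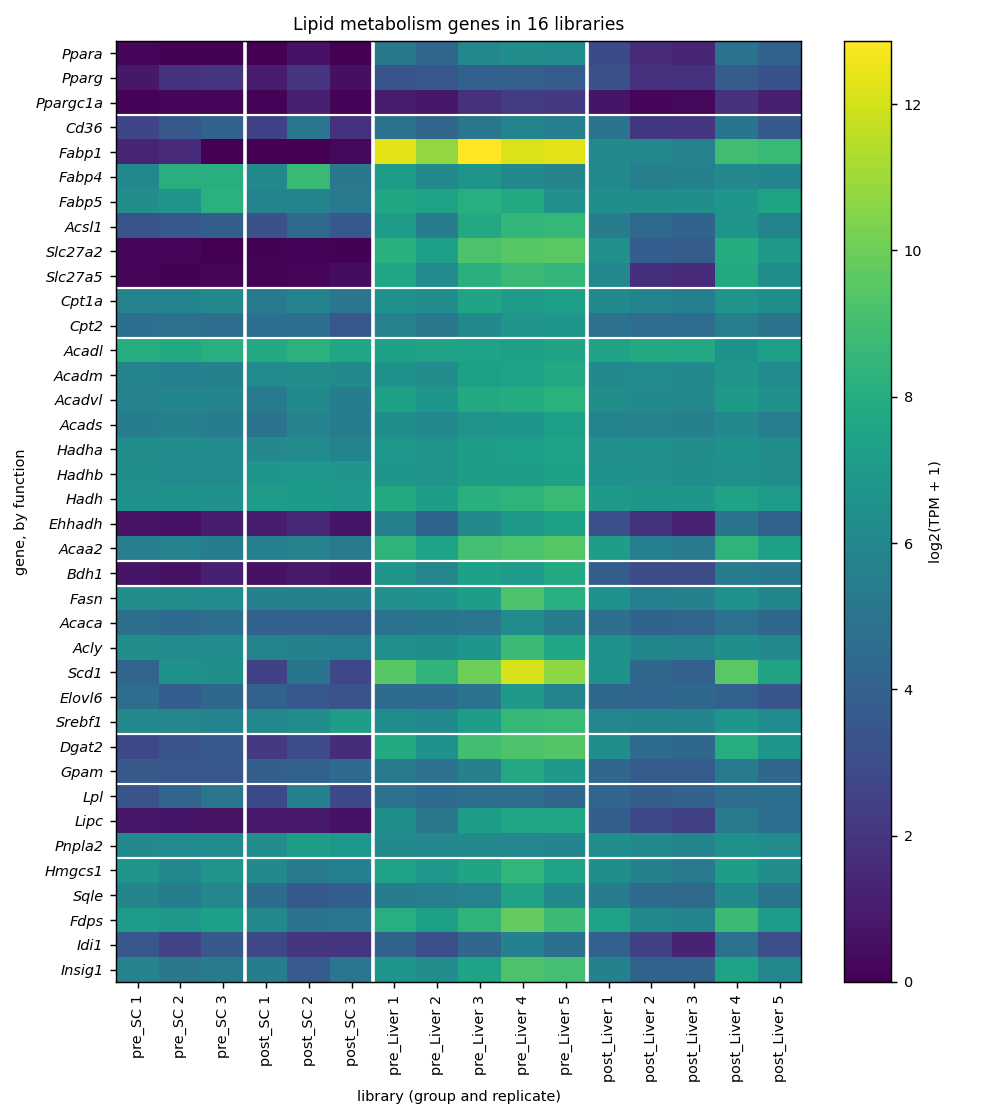
Level of each of the 38 genes (rows, ordered by function, with lines between functions) in each of the 16 libraries (columns), as log2(TPM + 1) on the color scale. The untreated liver libraries are brightest for Fabp1, and the treated liver replicates 2 and 3 are the darkest liver columns for Slc27a5, Ehhadh and Dgat2.

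Before treatment, most of these genes were higher in liver than in fat pad tumors. The exceptions were the core of fatty acid synthesis, the binding proteins Fabp4 and Fabp5, the lipases Lpl and Pnpla2, and the sterol genes Sqle and Idi1, for which no difference passed the test, and Acadl, which was lower. In limma's test across all genes, with Benjamini-Hochberg adjustment and a threshold of 0.05, 26 of the 38 genes were higher in liver and 1 was lower. Of all 13483 genes tested, 14.9% were higher and 32.7% lower. The median log2 difference was 1.44 over the 38 genes and −0.51 over all genes. With libraries scaled by the median of ratios, 3073 genes were higher and 2461 lower in place of 2009 and 4413. Without the hepatocyte genes in the total, the split was 2684 higher and 2901 lower. The count of the 38 genes that were higher stayed at 26 under both scalings, and the median of all genes moved to −0.02 and −0.24. Ppara, Ppargc1a, Fabp1, Slc27a2, Slc27a5, Ehhadh, Bdh1 and Lipc had a mean under 1 TPM over the 6 fat pad libraries. They entered the test through the liver libraries alone, so the filter favored their being higher in liver and their calls add no support. Among the other 30 genes, 18 were higher and 1 was lower. All 10 carcinoma markers were lower in liver. Of 19 hepatocyte markers tested, 12 were likewise under 1 TPM in fat pad tumors and entered through the liver libraries, and the other 7 were all higher in liver. In whole tumor tissue, fewer cells of a type and less RNA per cell cannot be told apart.

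Among the regulators, Ppara, the nuclear receptor that switches on fatty acid oxidation genes in hepatocytes, stood at 0.144, 0.0390 and 0.0602 TPM in the 3 untreated fat pad libraries. It stood at 35.5, 18.3, 64.3, 78.1 and 75.6 TPM in the 5 untreated liver libraries. The groups did not overlap, with a log2 difference of 5.50 ± 0.46 (SE, adjusted p = 6.9e-05). All log2 differences are on the log2(value + 1) scale, which understates changes of genes near 0. Pparg, the receptor that governs fat storage and is best known from adipocytes, had 0.783, 2.63 and 2.87 TPM in fat pad and 9.94, 10.3, 15.2, 14.5 and 12.6 TPM in liver tumors. Its log2 difference was 2.19 ± 0.29 (SE, adjusted p = 0.00101). Ppargc1a, a coactivator of mitochondrial and fasting genes, was near the lower limit throughout, at 0.0824 to 0.137 TPM in fat pad and 0.785 to 3.95 TPM in liver tumors. Its log2 difference was 1.48 ± 0.36 (SE, adjusted p = 0.0146).

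The widest gaps were in fatty acid uptake and binding, in Fabp1, Slc27a2 and Slc27a5, which entered the test through the liver libraries alone. Fabp1, the fatty acid binding protein of hepatocytes and enterocytes, had 1.50, 1.99 and 0 TPM in fat pad and 5170.2, 1754, 7469.6, 4737 and 4989 TPM in liver tumors. The log2 difference was 11.13 ± 0.51 (SE, adjusted p = 2.91e-06). Slc27a2, a very-long-chain acyl-CoA synthetase and transporter, had at most 0.156 TPM in fat pad tumors and 291, 151, 611, 734 and 769.9 TPM in liver tumors, which gave a log2 difference of 8.64 ± 0.52 (SE, adjusted p = 1.07e-05). Slc27a5, which activates bile acids and fatty acids in hepatocytes, differed by 7.66 ± 0.52 (SE, adjusted p = 2.2e-05). Acsl1, the main long-chain acyl-CoA synthetase of liver and fat, and Cd36, a fatty acid translocase of macrophages, endothelium and adipocytes, were also higher in liver, by 3.87 and 1.65. Fabp4, the binding protein of adipocytes, capillary endothelium and macrophages, had 63.7, 264 and 278 TPM in fat pad and 131, 68.4, 101, 67.3 and 57.8 TPM in liver tumors. The groups overlapped, with a log2 difference of −1.04 ± 0.50 (SE, adjusted p = 0.105). Fabp5, its epidermal relative, had 80.3, 103 and 297 TPM in fat pad and 203, 171, 277, 224 and 89.8 TPM in liver tumors, also overlapping, with a log2 difference of 0.42 ± 0.48 (SE, adjusted p = 0.465).

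The carnitine shuttle differed less. Cpt1a, the liver form of carnitine palmitoyltransferase that sets the rate of fatty acid entry into mitochondria, had 52.4, 55.6 and 70.3 TPM in the 3 untreated fat pad and 97.1, 78.5, 180.0, 132 and 152 TPM in the 5 untreated liver libraries. Every liver library exceeded every fat pad library, with a log2 difference of 1.04 ± 0.28 (SE, adjusted p = 0.0211). Among the libraries that share a batch constant (3 per site), the difference was 0.90 with an adjusted p of 0.0531. Cpt2, the inner membrane partner of Cpt1a, stood at 24.9, 26.8 and 24.2 TPM in fat pad and 50.7, 34.6, 67.1, 103 and 108 TPM in liver tumors, which gave a log2 difference of 1.37 ± 0.36 (SE, adjusted p = 0.02).

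Of the 9 beta-oxidation enzymes, 8 were higher in liver, counting Ehhadh, which entered the test through the liver libraries alone. Ehhadh, the peroxisomal bifunctional enzyme, differed most, with 0.566 to 1.06 TPM in fat pad and 47.9, 16.9, 64.8, 124 and 161 TPM in liver tumors, which gave a log2 difference of 5.23 ± 0.64 (SE, adjusted p = 0.000597). Acaa2, the mitochondrial thiolase, had 41.8 to 51.1 TPM against 334, 174, 518, 589.9 and 705 TPM, a log2 difference of 3.16 ± 0.42 (SE, adjusted p = 0.00101). Acadvl, the very-long-chain acyl-CoA dehydrogenase, had 50.9 to 58.3 TPM against 163, 106, 223, 248 and 300.4 TPM, a log2 difference of 1.80 ± 0.32 (SE, adjusted p = 0.00418). Hadh, Acadm and Acads, which handle medium and short chains, and the trifunctional protein subunits Hadha and Hadhb differed by 0.78 to 1.48 on the log2 scale. Acadl, the long-chain dehydrogenase, went the other way, with 261, 230.4 and 280.1 TPM in fat pad and 159, 171, 176, 153 and 179 TPM in liver tumors. Its log2 difference of −0.61 ± 0.15 (SE, adjusted p = 0.0148) was close to the median of all genes, −0.51, and was −0.08 (adjusted p = 0.778) under median-of-ratios scaling. Bdh1, the last enzyme of ketone body synthesis, stood at 0.659, 0.468 and 1.22 TPM in fat pad and 101, 61.9, 164, 136 and 232 TPM in liver tumors, which gave a log2 difference of 6.18 ± 0.39 (SE, adjusted p = 1.5e-05).

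Of the 6 fatty acid synthesis genes, Scd1 alone passed the test. Fasn, the fatty acid synthase, had 80.1, 79.2 and 76.3 TPM in fat pad and 89.3, 92.2, 147, 614 and 271 TPM in liver tumors. The groups did not overlap, but liver replicates 4 and 5 stood far above the others, and the log2 difference of 1.21 ± 0.59 (SE, adjusted p = 0.112) did not pass the test. Acaca, the acetyl-CoA carboxylase that makes malonyl-CoA, had 26.3, 21.5 and 24.8 TPM against 26.5, 31.3, 32.5, 72.7 and 41.6 TPM, and Acly, which makes cytosolic acetyl-CoA from citrate, had 77.7, 72.5 and 76.4 TPM against 86.6, 85.1, 108, 437 and 189 TPM. Their log2 differences were 0.64 (adjusted p = 0.104) and 0.94 (adjusted p = 0.141). Elovl6, which elongates palmitate, and Srebf1, the regulator of this pathway, differed by 1.07 and 1.45 (adjusted p = 0.126 and 0.0795). In all of these genes liver replicates 4 and 5, which share a batch constant of their own, were the highest libraries. Among the libraries of the other batch, Fasn differed by 0.44, Acaca by 0.30, Acly by 0.29, Elovl6 by 0.38 and Srebf1 by 0.60, with none passing the test. Scd1, the stearoyl-CoA desaturase, was higher in liver, with 17.7, 95.6 and 84.3 TPM in fat pad and 746, 336, 1051, 4325 and 1656 TPM in liver tumors, which gave a log2 difference of 4.41 ± 0.83 (SE, adjusted p = 0.00558).

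Both genes of triglyceride synthesis were higher in liver. Dgat2, which adds the last acyl chain, stood at 5.99, 9.29 and 11.1 TPM in fat pad and 233, 92.4, 493, 619 and 697 TPM in liver tumors, which gave a log2 difference of 5.16 ± 0.63 (SE, adjusted p = 0.00059). Gpam, which adds the first acyl chain in mitochondria, had 10.1 to 11.3 TPM against 36.8, 27.4, 47.5, 213 and 117 TPM, a log2 difference of 2.54 ± 0.62 (SE, adjusted p = 0.0149). Of the lipases, Lipc, the hepatic lipase of plasma lipoproteins, had 0.602 to 0.742 TPM against 83.3, 34.5, 140.1, 195 and 191 TPM, a log2 difference of 6.04 ± 0.53 (SE, adjusted p = 9.36e-05). Lpl, the lipase of capillaries in fat and muscle, and Pnpla2, the adipose triglyceride lipase, gave 0.37 (adjusted p = 0.365) and −0.19 (adjusted p = 0.253).

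Sterol synthesis was split. Insig1, the sensor that retains SREBP in the endoplasmic reticulum and is itself a SREBP target, had 51.7, 33.6 and 37.9 TPM in fat pad and 108, 77.9, 176, 612 and 511 TPM in liver tumors, which gave a log2 difference of 2.39 ± 0.68 (SE, adjusted p = 0.0242). Hmgcs1, the cytosolic HMG-CoA synthase, had 98.7, 63.8 and 100.0 TPM against 168, 116, 183, 355 and 168 TPM, a log2 difference of 1.10 ± 0.34 (SE, adjusted p = 0.0318). Fdps, which makes farnesyl diphosphate, had 135, 118 and 151 TPM against 275, 158, 331, 880.0 and 434 TPM, a log2 difference of 1.39 ± 0.47 (SE, adjusted p = 0.0411). Sqle, the squalene epoxidase, had 57.1, 42.0 and 60.7 TPM in fat pad and 43.5, 44.9, 50.7, 167 and 67.6 TPM in liver tumors. Liver replicate 4 stood apart, the groups overlapped, and the log2 difference was 0.29 ± 0.43 (SE, adjusted p = 0.569). Idi1, the isopentenyl diphosphate isomerase, gave 1.13 ± 0.51 (SE, adjusted p = 0.0873). The calls of Ppargc1a, Cpt1a, Cpt2, Acads, Hadha, Hadhb, Gpam, Hmgcs1, Fdps, Insig1 and Acadl were lost without pre_SC replicate 1 and again without replicate 3. With Cd36 in the former case and Acadm in the latter, 12 of the 27 calls were lost each time, leaving 15 genes higher (adjusted p of lost calls 0.0514 to 0.113). Without replicate 2, 8 calls were lost. Fabp4 was called lower without pre_SC replicate 1 (−1.73, adjusted p = 0.0144), and Srebf1 and Idi1 were called higher without pre_Liver replicate 2 (1.77 and 1.44, adjusted p = 0.0241 and 0.0147). Hmgcs1 and Fdps also lost theirs without pre_Liver replicate 3 or 5 (adjusted p of 0.0523 to 0.0777).

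**Figure D2:**
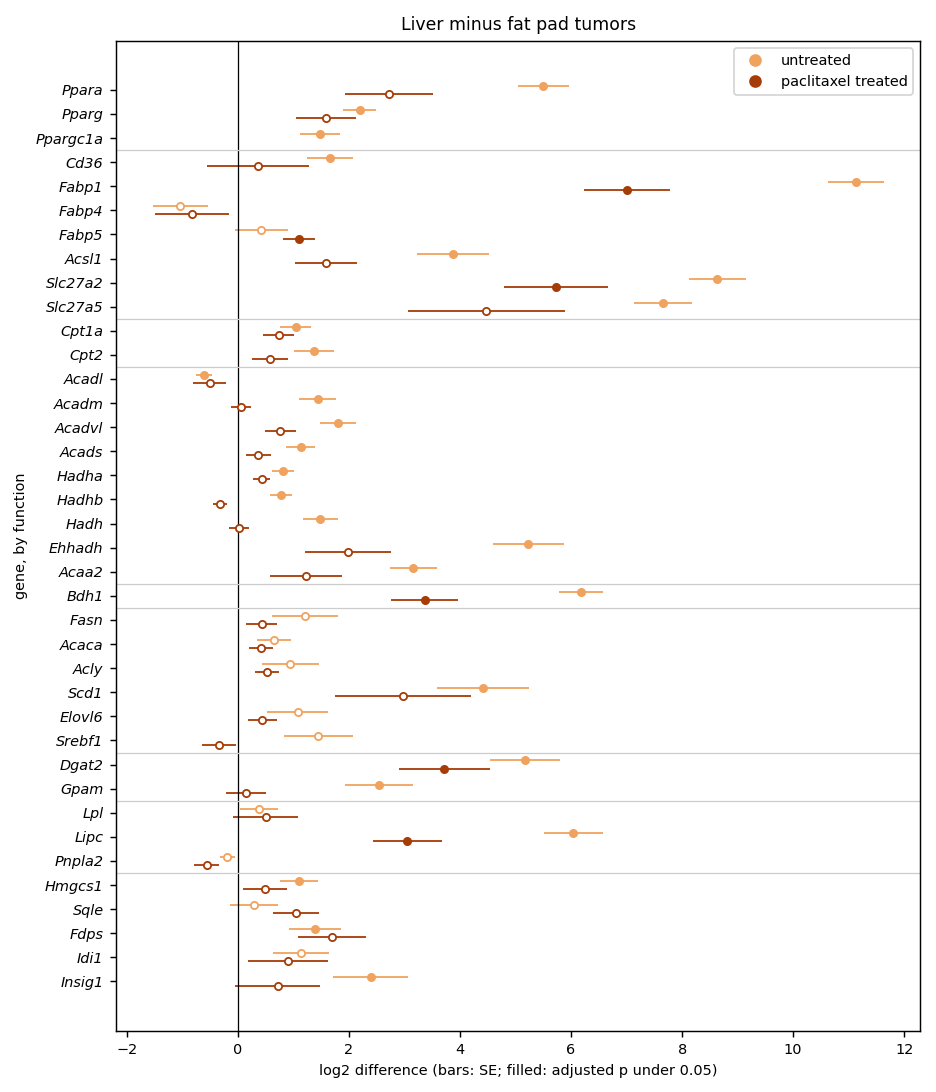
Log2 difference between liver and fat pad tumors for each gene, with bars of 1 SE, in untreated (light) and treated (dark) tumors. Filled points have a limma adjusted p under 0.05. Untreated differences run from −1.04 for Fabp4 to 11.13 for Fabp1, and in treated tumors the filled points are Fabp1, Slc27a2, Bdh1, Dgat2, Lipc and Fabp5.

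Other genes of the same pathways, taken from longer lists, were also mostly higher in untreated liver tumors. Counts here leave out genes with a mean under 1 TPM in fat pad tumors, which could enter the test through the liver libraries alone. Of 25 other oxidation and ketone genes, 18 were higher and 1 was lower. Creb3l3, a hepatocyte regulator of fasting genes, was 1 of 3 left out, and its log2 difference of 5.99 adds no support. The one lower gene was Oxct1, the enzyme with which tissues other than liver use ketone bodies, at 59.5 ± 15.4 TPM (SD, n = 3) in fat pad and 27.9 ± 13.7 TPM (SD, n = 5) in liver tumors, and its log2 difference was −1.15 ± 0.36 (SE, adjusted p = 0.0332). Of 22 other sterol synthesis and uptake genes, 14 were higher and 1 was lower. Tm7sf2, a reductase late in cholesterol synthesis, differed by 3.18, and Srebf2, the regulator of sterol synthesis, was the lower one at −0.65 ± 0.19 (SE, adjusted p = 0.025). This value of Srebf2 was close to the median of all genes, −0.51. The longer lists were not examined under the other scalings, so a lower level of Srebf2 rests on the main scaling alone.

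Of 13 sterol efflux and LXR genes, 6 were higher in untreated liver tumors and 4 lower. The plasma cholesterol acyltransferase Lcat and the sterol hydroxylase Cyp27a1 differed by 6.92 and 5.05. Mylip, the ubiquitin ligase of the LDL receptor, differed by −1.27, and the lysosomal sterol carrier Npc2 by −1.58. Of 20 other genes of fatty acid and triglyceride synthesis, 12 were higher and 3 lower, with 5.94 for Mlxipl, a carbohydrate-sensing regulator, 3.34 for the desaturase Fads1, −1.64 for Acsl4 and −2.65 for Scd2, a desaturase related to Scd1. Of 12 lipid droplet and lipolysis genes, 5 were higher and 2 lower, with 4.19 for Mttp, which loads lipoproteins, −1.87 for the adipocyte droplet protein Cidec and −1.59 for Hilpda.

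In fat pad tumors, treated libraries had less RNA of fatty acid and sterol synthesis enzymes and more of 2 beta-oxidation enzymes. Fasn, Acaca and Acly fell by 0.59 to 0.69 on the log2 scale, Sqle and Fdps fell by 1.71 and 1.73, and Acadm and Hadhb rose by 0.59 and 0.50. Of the 30 genes tested here, 2 rose and 5 fell. Of all 13364 genes tested, 2.67% rose and 4.27% fell. The median log2 difference was −0.41 over the 30 genes and −0.03 over all genes. The 8 genes under a mean of 1 TPM in these libraries were not tested.

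Fasn had 80.1, 79.2 and 76.3 TPM in the 3 untreated and 46.9, 49.1 and 48.5 TPM in the 3 treated fat pad libraries. Both groups were tight and did not overlap, with a log2 difference of −0.69 ± 0.10 (SE, adjusted p = 0.0169). Acaca went from 26.3, 21.5 and 24.8 TPM to 15.7, 15.8 and 14.7 TPM, a log2 difference of −0.62 ± 0.14 (SE, adjusted p = 0.0427). Acly went from 77.7, 72.5 and 76.4 TPM to 53.5, 49.1 and 46.7 TPM, a log2 difference of −0.59 ± 0.11 (SE, adjusted p = 0.0275). These 3 enzymes make acetyl-CoA, malonyl-CoA and palmitate in turn, and in each all treated libraries were below all untreated ones. Elovl6, the next enzyme, gave −0.67 ± 0.26 (SE, adjusted p = 0.146), with groups that overlapped. Srebf1 went from 64.9, 60.8 and 54.0 TPM to 63.1, 79.2 and 143 TPM, with overlapping groups and a log2 difference of 0.57 ± 0.28 (SE, adjusted p = 0.224).

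Scd1 and several genes of fat uptake followed the adipocyte markers from library to library. Scd1 had 17.7, 95.6 and 84.3 TPM before and 4.89, 31.1 and 5.72 TPM after treatment, with a log2 difference of −2.31 ± 0.81 (SE, adjusted p = 0.121). Fabp4 had 63.7, 264 and 278 TPM before and 71.3, 420.4 and 34.5 TPM after, with a log2 difference of −0.72 ± 0.93 (SE, adjusted p = 0.646). Untreated replicates 2 and 3 and treated replicate 2 were the high libraries of both genes. The same 3 libraries were the highest for Cd36, with 5.42, 11.0 and 16.3 TPM before and 4.81, 31.8 and 2.76 TPM after, and for Lpl, with 9.19, 17.4 and 32.5 TPM before and 6.40, 47.5 and 6.53 TPM after. They were also the highest for 10 adipocyte markers other than Fabp4, whose summed level was 72.8, 330.0 and 394 TPM before and 26.2, 356 and 14.1 TPM after. Adipoq, the hormone that defines adipocytes, stood at 3.03, 12.9 and 20.9 TPM before and 0.0755, 13.1 and 0 TPM after. The part of adipocyte RNA in the values of Scd1, Fabp4, Cd36 and Lpl was not tested. Fabp5 had 80.3, 103 and 297 TPM before and 53.7, 53.8 and 38.1 TPM after, without overlap, and a log2 difference of −1.48 ± 0.45 (SE, adjusted p = 0.0864).

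Of the genes that fell in fat pad tumors, Fdps and Sqle of sterol synthesis fell furthest. Sqle had 57.1, 42.0 and 60.7 TPM in untreated and 22.8, 11.7 and 13.5 TPM in treated fat pad tumors, a log2 difference of −1.71 ± 0.26 (SE, adjusted p = 0.0169), which is 3.28-fold lower. Fdps had 135, 118 and 151 TPM before and 64.5, 30.3 and 32.4 TPM after, a log2 difference of −1.73 ± 0.28 (SE, adjusted p = 0.0185), which is 3.31-fold lower. In both genes all treated libraries lay below all untreated ones, and treated replicate 1 was the highest of the treated libraries. Hmgcs1 had 98.7, 63.8 and 100.0 TPM before and 70.3, 40.1 and 45.7 TPM after, Idi1 10.3, 5.31 and 11.2 TPM before and 5.83, 3.04 and 2.89 TPM after, and Insig1 51.7, 33.6 and 37.9 TPM before and 41.1, 12.0 and 32.6 TPM after. These groups overlapped, and the log2 differences of −0.75, −1.01 and −0.65 did not pass the test (adjusted p = 0.111, 0.106 and 0.345). Of 22 other sterol genes, 6 fell and none rose, against 4.27% of all genes that fell. Srebf2 went from 71.6 ± 11.7 to 26.6 ± 7.13 TPM (SD, n = 3 each), a log2 difference of −1.41 ± 0.22 (SE, adjusted p = 0.0172). Mvk, the mevalonate kinase, went from 18.2 ± 0.308 to 9.87 ± 0.832 TPM (SD, n = 3 each), a log2 difference of −0.83 ± 0.14 (SE, adjusted p = 0.0222). The other 4 were Acat2, Scap, Mvd and Lss.

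The promoters of Fasn and Hmgcs1 are shown as examples of fatty acid and sterol synthesis. Fasn fell in the treated fat pad tumors, and the difference of Hmgcs1 there did not pass the test. SREBP acts on such promoters through a sterol regulatory element helped by NF-Y at CCAAT boxes. Its part in the changes of the fat pad tumors was not tested. The 250 bases before each start site were searched on both strands for TCACNCCAC as the sterol element, for CCAAT, and for the E-box CACGTG. Capitals mark the matches, which on the minus strand read ATTGG for the CCAAT box. The sequences are those of RefSeq on GRCm38.p6.
Fasn, chr11:120824548-120824797, minus strand: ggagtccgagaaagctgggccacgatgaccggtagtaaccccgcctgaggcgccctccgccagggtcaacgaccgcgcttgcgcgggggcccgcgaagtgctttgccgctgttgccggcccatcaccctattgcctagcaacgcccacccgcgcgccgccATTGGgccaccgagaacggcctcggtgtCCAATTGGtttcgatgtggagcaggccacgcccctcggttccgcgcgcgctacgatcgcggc
Hmgcs1, chr13:119690101-119690350, plus strand: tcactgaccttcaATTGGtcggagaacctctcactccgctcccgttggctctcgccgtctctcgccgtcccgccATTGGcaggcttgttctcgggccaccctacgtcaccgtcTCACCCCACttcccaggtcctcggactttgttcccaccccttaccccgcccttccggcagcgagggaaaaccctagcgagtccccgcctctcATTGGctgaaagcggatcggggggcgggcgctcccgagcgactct

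Fasn held 3 CCAAT boxes, of which 2 overlap on opposite strands, and no match to the other letters searched. Hmgcs1 held 3 CCAAT boxes on the minus strand and TCACCCCAC from 137 to 129 bases before its start. RefSeq promoters were matched for 29 of the 38 genes, and Sqle and Fdps were not among them. Promoters on chromosome 18, where Acaa2 lies, were left out for the listed genes but not for all genes. These genes have 37 promoters in the table, of which 3 held the sterol element (Hmgcs1, Acsl1 and Ehhadh), 16 a CCAAT box and 1 the E-box (Insig1), or 8.11%, 43.2% and 2.7%. Of 32851 promoters of all genes, 1.05% held the sterol element, 33.8% a CCAAT box and 6.02% the E-box. A match describes the letters and is not evidence of binding.

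Among oxidation genes, Acadm had 53.5, 46.4 and 47.4 TPM before and 74.1, 79.9 and 69.4 TPM after treatment in fat pad tumors, a log2 difference of 0.59 ± 0.12 (SE, adjusted p = 0.0324). Hadhb had 82.8, 72.8 and 74.1 TPM before and 107, 114 and 105 TPM after, a log2 difference of 0.50 ± 0.11 (SE, adjusted p = 0.0367). In both genes all treated libraries were above all untreated ones. Hadh went from 94.8, 98.3 and 89.8 TPM to 139, 129 and 114 TPM, also without overlap, and its log2 difference of 0.42 ± 0.11 (SE, adjusted p = 0.0658) did not pass the test. Hadha, whose product forms 1 complex with that of Hadhb, had 77.0, 77.2 and 72.9 TPM before and 66.2, 71.7 and 55.2 TPM after. All treated libraries of Hadha were below all untreated ones, the opposite order to Hadhb. Its log2 difference of −0.24 ± 0.13 (SE, adjusted p = 0.264) did not pass the test, so a fall of Hadha is not shown. Cpt1a had 39.4, 53.0 and 32.0 TPM in treated fat pad tumors, overlapping the untreated values, with a log2 difference of −0.53 ± 0.20 (SE, adjusted p = 0.149). Cpt2, Acadl, Acadvl, Acads and Acaa2 gave log2 differences of −0.41 to −0.01. Among 25 other oxidation and ketone genes, the 1 called was Oxct1, which fell from 59.5 ± 15.4 to 25.9 ± 5.17 TPM (SD, n = 3 each), a log2 difference of −1.16 ± 0.23 (SE, adjusted p = 0.0315).

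Hadha and Hadhb start 85 bases apart and run in opposite directions, Hadha at chr5:30118304-30155162 on the minus strand and Hadhb at chr5:30155248-30184593 on the plus strand of GRCm38. The bases between them are shown because the pair shares this stretch, while in treated fat pad tumors Hadhb was called higher and Hadha was not called. They hold none of the letters searched.
Hadha and Hadhb, chr5:30155163-30155247, plus strand: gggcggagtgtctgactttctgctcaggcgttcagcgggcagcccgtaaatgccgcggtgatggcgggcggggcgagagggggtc

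Among lipases and triglyceride genes of the fat pad tumors, Pnpla2 went from 67.3, 73.0 and 72.0 to 77.3, 149 and 117 TPM and Gpam from 11.3, 10.1 and 10.1 to 13.9, 15.1 and 21.8 TPM. The groups did not overlap in either gene, and neither difference passed the test, at 0.64 ± 0.22 (SE, adjusted p = 0.12) and 0.62 ± 0.19 (SE, adjusted p = 0.0949). Dgat2 gave −0.98 ± 0.37 (SE, adjusted p = 0.142). In the other lists, Mylip rose by 0.55 ± 0.11 (SE, adjusted p = 0.0319), the sterol hydroxylase Ch25h fell, with −1.77 ± 0.40 (SE, adjusted p = 0.0436), and the desaturase Fads2 fell, with −1.06 ± 0.19 (SE, adjusted p = 0.0241) on the log2 scale, while none of 12 lipid droplet genes was called. Cell cycle genes, 6 of 8, also fell, their summed level going from 452 to 556 TPM before to 232 to 331 TPM after. Of 8 endothelial markers, 5 rose and 1 fell, and none of 10 carcinoma markers was called. The part of dividing cells or endothelium in the changes of lipid genes was not tested. Without pre_SC replicate 1 or without pre_SC replicate 3, all 7 calls were lost (adjusted p of 0.0675 to 0.166), and without pre_SC replicate 2 only Sqle was called. Leaving out a treated library cost 2 to 4 calls, of Acadm, Hadhb, Acaca or Acly, with adjusted p of 0.0502 to 0.0897. Calls were gained as well. Without post_SC replicate 2, the treated library rich in adipocyte markers, Scd1 and Dgat2 fell (−3.09 and −1.34, adjusted p = 0.0450 and 0.0482). Pnpla2 rose without post_SC replicate 1 (0.89, adjusted p = 0.0386) and Hadh without post_SC replicate 3 (0.50, adjusted p = 0.0487).

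**Figure D3:**
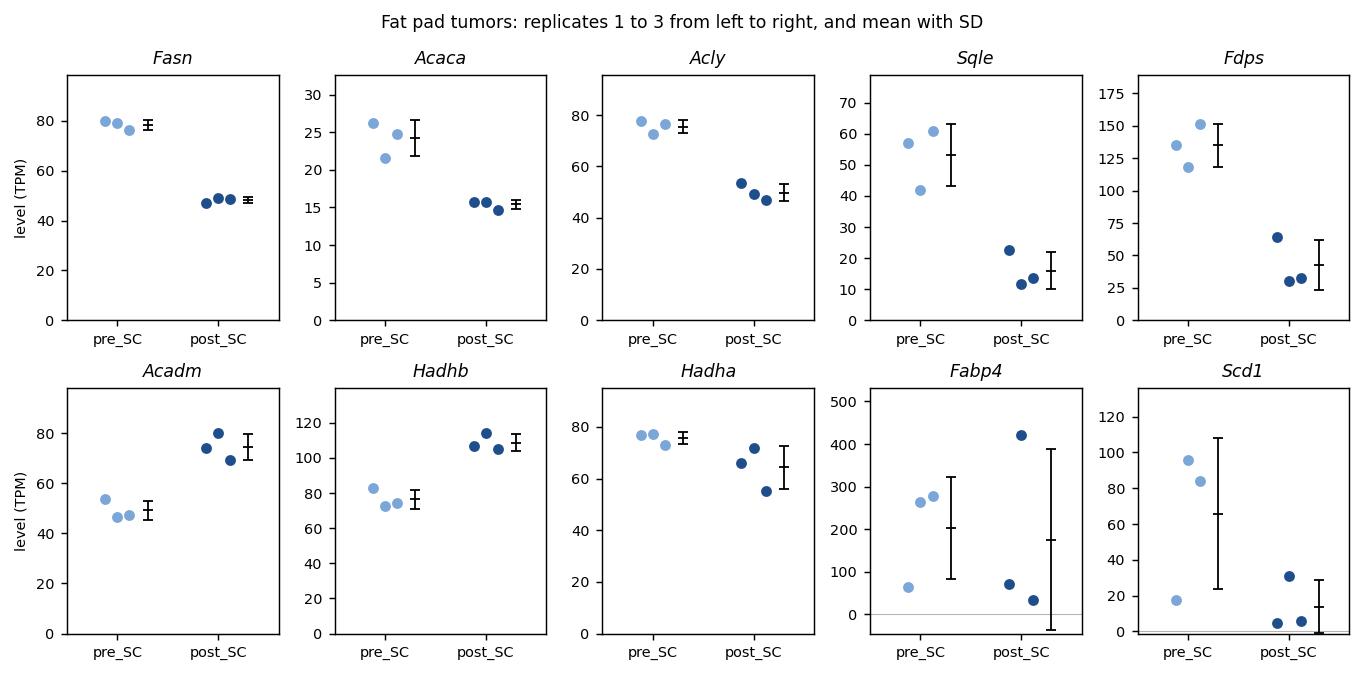
Level in TPM of 10 genes in the 3 untreated (pre_SC, light) and 3 treated (post_SC, dark) fat pad libraries, with replicates 1 to 3 from left to right, and the mean with SD in black. The groups are apart for Fasn, Acaca, Acly, Sqle, Fdps, Acadm, Hadhb and Hadha, and overlap for Fabp4 and Scd1, where treated replicate 2 is the high treated library.

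In liver tumors, treated libraries had lower values of nearly all of these genes, but the libraries of each group were far apart and few of the differences passed the test. Fabp1, Bdh1, Lipc and Acadvl fell, by 5.00, 2.84, 2.84 and 1.21 on the log2 scale, and no gene rose. Of 37 genes tested, 4 fell. Of all 13008 genes, 2.24% rose and 1.41% fell. The median log2 difference was −1.21 over the 37 genes and 0.37 over all genes, and the latter moved to 0.03 with median-of-ratios scaling.

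Fabp1 fell furthest. Its treated liver libraries had 71.6, 63.3, 50.5, 481 and 401 TPM, all below the lowest untreated library, and its level fell by 5.00 ± 0.69 (SE, adjusted p = 0.00606) on the log2 scale. Bdh1 had 12.7, 7.11, 6.78, 42.4 and 35.2 TPM after treatment, also below every untreated library, with a log2 difference of −2.84 ± 0.52 (SE, adjusted p = 0.0187). Lipc had 13.9, 6.23, 4.50, 38.7 and 25.4 TPM, where treated replicate 4 reached into the untreated range, with a log2 difference of −2.84 ± 0.59 (SE, adjusted p = 0.0316). Acadvl had 82.1, 65.1, 64.5, 128 and 92.3 TPM, with treated replicate 4 above the lowest untreated library, and a log2 difference of −1.21 ± 0.29 (SE, adjusted p = 0.0492).

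Cpt1a had 71.6, 55.1, 45.8, 98.8 and 83.4 TPM in treated liver tumors, overlapping the untreated values, and a log2 difference of −0.82 ± 0.27 (SE, adjusted p = 0.091). Fasn had 94.3, 45.7, 48.7, 94.8 and 58.9 TPM, overlapping as well, and a log2 difference of −1.46 ± 0.49 (SE, adjusted p = 0.0971). Without untreated replicates 4 and 5, the Fasn difference was −0.71 (adjusted p = 0.418). Hadha and Hadhb had 90.2, 87.5, 80.6, 93.0 and 80.6 TPM and 92.0, 90.9, 83.2, 86.4 and 81.9 TPM after treatment. In both genes all treated libraries were below all untreated ones, though the log2 differences of −0.62 and −0.59 did not pass the test (adjusted p = 0.064 and 0.0632). The other beta-oxidation enzymes gave −2.80 (Ehhadh) to −0.01 (Acadl).

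The regulators Ppara and Pparg gave −2.48 ± 0.63 (SE, adjusted p = 0.0545) and −0.86 ± 0.33 (SE, adjusted p = 0.119). Slc27a2 had 90.2, 13.2, 12.9, 248 and 122 TPM after treatment and a log2 difference of −2.92 ± 0.82 (SE, adjusted p = 0.0693). Scd1 ran from 15.3 to 756 TPM over the treated libraries, and gave −3.71 ± 1.03 (SE, adjusted p = 0.0672). Among sterol genes, Insig1 and Hmgcs1 gave −2.29 ± 0.74 (SE, adjusted p = 0.0895) and −1.35 ± 0.36 (SE, adjusted p = 0.0614), while Fdps had 171, 70.2, 55.7, 432 and 134 TPM, a spread wider than the group difference of −1.42 ± 0.57 (SE, adjusted p = 0.131). Fabp4, Fabp5 and Lpl gave −0.50, −0.79 and −0.27, and Pnpla2 gave 0.26 ± 0.14 (SE, adjusted p = 0.211).

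In the longer lists, 7 of 29 other oxidation and ketone genes fell in liver tumors, among them Crot, a peroxisomal carnitine acyltransferase, with −1.60 ± 0.23 (SE, adjusted p = 0.00718), and the peroxisomal thiolase Acaa1b, with −3.37 ± 0.56 (SE, adjusted p = 0.013). Of 22 other sterol genes 3 fell, namely Sc5d, Fdft1 and Stard4, with −2.28 for Sc5d and −1.21 for Fdft1. Of 20 other genes of fatty acid and triglyceride synthesis 4 fell, with −1.71 ± 0.27 (SE, adjusted p = 0.0101) for the elongase Elovl5 and −2.76 ± 0.44 (SE, adjusted p = 0.0104) for Mlxipl. Mgll, the monoglyceride lipase, was the one droplet and lipolysis gene of 12 that fell, with −2.36. Mylip rose by 1.13 ± 0.18 (SE, adjusted p = 0.0101), the 1 gene called of 16 in the sterol efflux and LXR list. Over all genes of the liver fit, 1.41% fell and 2.24% rose.

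The liver libraries differed in how much hepatocyte RNA they held, and most of the lipid genes varied with it. The summed hepatocyte markers were 70618, 40517, 109270, 165260 and 168170 TPM in untreated liver replicates 1 to 5 and 40747, 4824, 4049, 109300 and 39171 TPM in treated replicates 1 to 5. Over 9 values, with treated replicates 2 and 3 averaged, each of 13556 genes was tested for a relation to these markers on the log2 scale, in an exact two-sided permutation test of Pearson's r with p adjusted over all these genes. Of the 38 genes, 28 were positively related at an adjusted p under 0.05 and none negatively, while 11.1% of all genes were positively and 43.1% negatively related. The median r was 0.842 over the 38 genes and −0.636 over all genes. By Spearman's rho 30 of the 38 passed, all positively, against 10.2% of all genes positively and 48.1% negatively related. By Pearson's r the relation was closest for Slc27a5 (r = 0.993, permutation p = 6.61e-05, adjusted 0.00108, rho = 0.90, permutation p = 0.00203, adjusted 0.00814), and r was 0.979 without the 2 values farthest from the median. By Spearman's rho the relation was closest for Fdps (rho = 0.983, permutation p = 4.96e-05, adjusted 0.00246). For Cpt1a, r was 0.874 (permutation p = 0.000579, adjusted 0.00311), rho was 0.833 (permutation p = 0.00827, adjusted 0.0192), and r was 0.802 without the 2 farthest values. For Fasn, r was 0.751 (permutation p = 0.0299, adjusted 0.0543), rho was 0.917 (permutation p = 0.00131, adjusted 0.00662), and r was 0.773 without them. For Fabp1, r was 0.761 (permutation p = 0.00805, adjusted 0.0195), rho was 0.633 (permutation p = 0.0760, adjusted 0.110), and r was 0.591 without them. Acadl (r = −0.535), Pnpla2, Fabp4, Fabp5, Lpl, Hadhb, Fasn, Acaca, Acly and Elovl6 gave no relation that passed by Pearson's r. Each treatment group and each batch of untreated libraries was too small for a test of its own. With the 2 group means removed, r was 0.990 for Slc27a5, 0.812 for Cpt1a, 0.621 for Fasn and 0.738 for Fabp1.

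With the mean log2 level of the hepatocyte markers as a covariate of the liver fit, 4 genes were lower in treated libraries, and 0.876% of all genes were lower. The covariate fit counted the closely alike treated replicates 2 and 3 as separate libraries. It was not repeated with them averaged, without untreated replicates 4 and 5, or with any other library left out. Fabp1 stood at −3.67 ± 0.55 (SE, adjusted p = 0.0229), Slc27a2 at −0.92 ± 0.15 (SE, adjusted p = 0.0262), Bdh1 at −1.71 ± 0.31 (SE, adjusted p = 0.0298) and Lipc at −1.49 ± 0.30 (SE, adjusted p = 0.0357). Acadvl lost its call, at −0.68 (adjusted p = 0.137), and Cpt1a and Fasn stood at −0.32 and −0.74. Untreated replicate 3 and treated replicate 4, a pair chosen after their values were seen, had nearly the same hepatocyte sum. Fabp1 stood at 7470 TPM in the former and 481 TPM in the latter, Slc27a2 at 611 and 248, Bdh1 at 164 and 42.4, Cpt1a at 180.0 and 98.8, and Fdps at 331 and 432 TPM. Untreated replicate 2 and treated replicate 1 were also close, with hepatocyte sums of 40517 and 40747 TPM. There Fabp1 stood at 1754 and 71.6 TPM, Slc27a2 at 151 and 90.2, Bdh1 at 61.9 and 12.7, and Cpt1a at 78.5 and 71.6. Fdps was again higher in the treated library. Treated replicate 5, with a sum of 39171 TPM, had more Cpt1a than untreated replicate 2 and less Fabp1, Slc27a2, Bdh1 and Fdps. Neutrophil markers, 8 of 8, rose in the treated liver tumors, with summed levels of 151 to 1100 TPM before and 2363 to 16902 TPM after, and none of 10 carcinoma markers was called. The part of neutrophil RNA in the lower lipid values was not tested.

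The calls in liver tumors moved with single libraries. Without untreated replicates 4 and 5, which have their own batch constant, none of the 4 calls remained (adjusted p of 0.0580 to 0.318). Fabp1 kept its call without any 1 library and with treated replicates 2 and 3 averaged. Bdh1, Lipc and Acadvl lost theirs without untreated replicate 3, 4 or 5, without treated replicate 1 or 2, or with treated replicates 2 and 3 averaged (adjusted p of 0.0513 to 0.142). Lipc and Acadvl also lost theirs without untreated replicate 1 or treated replicate 3, and Acadvl without treated replicate 5 (adjusted p of 0.0525 to 0.112). In the other direction, 25 genes fell without untreated replicate 2, the untreated library with the fewest hepatocyte markers, and 24 fell without treated replicate 4, the treated library with the most. Calls over all genes grew as well. With all libraries 291 rose and 183 fell. Without untreated replicate 2, 2510 of 12997 genes rose and 1022 fell. Without treated replicate 4, 941 of 13027 rose and 859 fell.

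**Figure D4:**
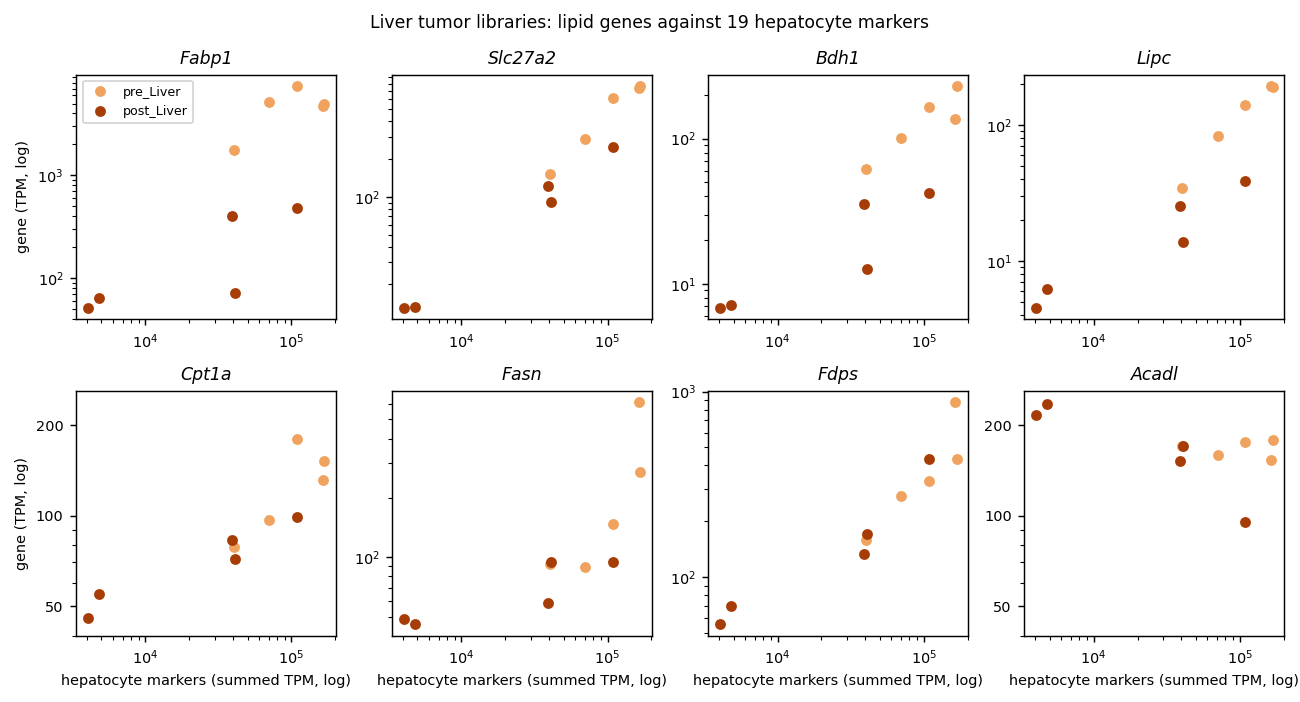
Level in TPM of 8 genes (vertical, log axis) against the summed level of 19 hepatocyte markers in TPM (horizontal, log axis) in the 5 untreated (light) and 5 treated (dark) liver libraries. Fabp1, Bdh1 and Lipc lie lower in treated than in untreated libraries of like hepatocyte level, Fdps follows the markers in both groups, and Acadl does not rise with them.

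The difference between the 2 responses was tested as the interaction of site and treatment over all 16 libraries. A more negative response in liver was called for Hadhb, Hadh and Fabp1, which is 3 of the 38 genes, against 0.795% of all 13705 genes, and 2.23% were called with a more positive response in liver. Hadhb had the lowest adjusted p of the 38, rising in fat pad tumors and with lower values in treated liver tumors, a difference of −1.10 ± 0.22 (SE, adjusted p = 0.018). Hadh differed by −1.46 ± 0.37 (SE, adjusted p = 0.0486) and Fabp1 by −4.12 ± 1.00 (SE, adjusted p = 0.0411). Fabp1 was at or under 1.99 TPM in every fat pad library, untreated ones included. It entered the test through the liver libraries and had no room to fall in fat pad tumors, so its value restates its fall in liver tumors, and it was not called with a pseudocount of 0.1 (adjusted p = 0.225). Acadm, which rose in fat pad tumors, gave −1.38 ± 0.38 (SE, adjusted p = 0.064). For Fasn and Cpt1a the differences were −0.78 ± 0.70 (SE, adjusted p = 0.469) and −0.30 ± 0.41 (SE, adjusted p = 0.631), and for Sqle and Fdps 0.76 ± 0.63 (SE, adjusted p = 0.435) and 0.30 ± 0.83 (SE, adjusted p = 0.824), so the responses of these genes at the 2 sites were not shown to differ. With median-of-ratios scaling 187 genes had a more positive and 134 a more negative response in liver, and with quantile normalization 233 and 139, in place of 305 and 109. Hadhb lost its call with median-of-ratios scaling (−1.56, adjusted p = 0.0513) and without pre_SC replicate 2 or 3 (adjusted p of 0.0538 and 0.0633), and Fabp1 and Hadh lost theirs without any 1 of most libraries, as given under the processing alternatives.

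Among the longer lists, Oxct1 had the more positive response in liver, a difference of 2.10 ± 0.42 (SE, adjusted p = 0.0187). It stood at 59.5 ± 15.4 and 25.9 ± 5.17 TPM in untreated and treated fat pad tumors (SD, n = 3 each) and at 27.9 ± 13.7 and 50.5 ± 5.24 TPM in untreated and treated liver tumors (SD, n = 5 each). Crot, Vnn1 (under 1 TPM in fat pad tumors) and Acaa1b had the more negative response in liver, at −1.89, −2.26 and −3.66, as had Mlxipl and Elovl5, at −3.24 and −1.49. No gene of the sterol synthesis, sterol efflux or lipid droplet lists was called.

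**Figure D5:**
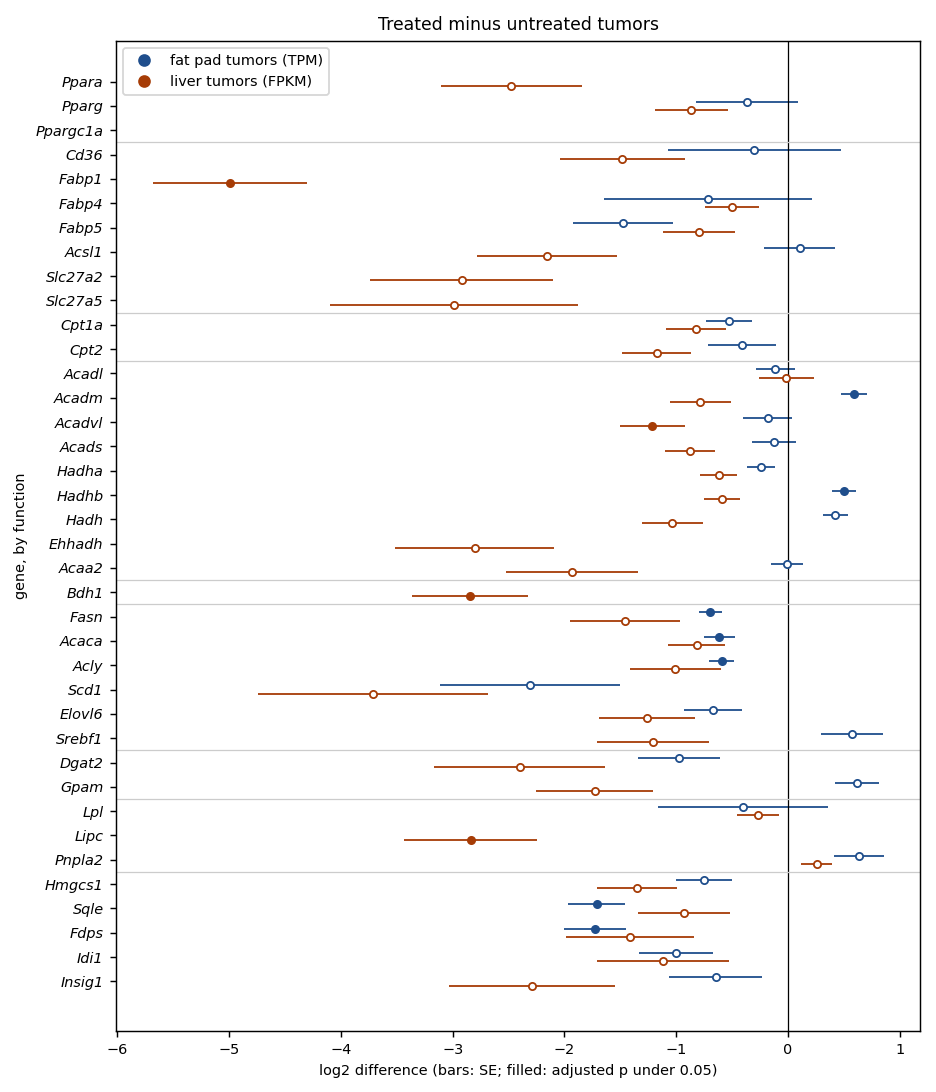
Log2 difference between treated and untreated tumors for each gene, with bars of 1 SE, in fat pad (blue, TPM) and liver tumors (brown, FPKM). Filled points have a limma adjusted p under 0.05. The filled fat pad points are Acadm and Hadhb on the right and Fasn, Acaca, Acly, Sqle and Fdps on the left, and the filled liver points are Fabp1, Bdh1, Lipc and Acadvl.

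Between treated sites, fewer differences passed the test, among these genes and among all genes. The change of the site difference with treatment is the interaction given above. Liver tumors had more Fabp1, Slc27a2, Bdh1, Lipc, Dgat2 and Fabp5, and no gene was lower. Of 37 genes tested, these 6 were higher, against 6.65% of all 13770 genes higher and 2.77% lower. With quantile normalization, the counts over all genes were 699 higher and 669 lower in place of 916 and 382. The median log2 difference was 0.72 over the 37 genes and −0.07 over all genes. Of the 6, Fabp1, Slc27a2, Bdh1 and Lipc entered the test through the liver libraries alone. Among the 30 genes tested with a mean of at least 1 TPM in fat pad tumors, 2 were higher and 0 lower. That share of higher genes is near the share over all genes.

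Fabp1 stood at 0, 0 and 0.193 TPM in the 3 treated fat pad libraries and differed by 7.00 ± 0.78 (SE, adjusted p = 0.00156). Slc27a2 was at or below 0.0951 TPM in treated fat pad tumors and differed by 5.73 ± 0.94 (SE, adjusted p = 0.00768). Bdh1 stood at 0.566, 0.856 and 0.520 TPM there and differed by 3.36 ± 0.60 (SE, adjusted p = 0.0112), and Lipc at 0.812, 0.913 and 0.520 TPM, with a difference of 3.05 ± 0.62 (SE, adjusted p = 0.0177). Dgat2 had 3.42, 7.06 and 2.20 TPM in treated fat pad and 84.3, 21.7, 18.5, 254 and 107 TPM in treated liver tumors, a log2 difference of 3.71 ± 0.82 (SE, adjusted p = 0.0246). Fabp5 had 82.9, 83.4, 84.8, 109.9 and 184 TPM in treated liver tumors, all above the treated fat pad values given earlier, and differed by 1.10 ± 0.29 (SE, adjusted p = 0.0474).

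For Cpt1a and Fasn the difference between treated sites did not pass the test. Cpt1a gave 0.74 ± 0.28 (SE, adjusted p = 0.13) and Fasn 0.43 ± 0.28 (SE, adjusted p = 0.323). Hadhb was lower in every treated liver library than in every treated fat pad library, the reverse of its order before treatment, though its log2 difference of −0.32 ± 0.13 (SE, adjusted p = 0.153) did not pass the test. Acaca and Acly had 25.5, 16.5, 17.5, 27.9 and 19.3 TPM and 97.2, 58.3, 55.3, 84.8 and 71.3 TPM in treated liver tumors, above every treated fat pad library, at 0.42 ± 0.22 (SE, adjusted p = 0.234) and 0.52 ± 0.21 (SE, adjusted p = 0.153). Sqle and Fdps gave 1.05 ± 0.41 (SE, adjusted p = 0.141) and 1.69 ± 0.61 (SE, adjusted p = 0.118).

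Treated libraries of both sites differed in markers too, as 6 of 7 hepatocyte and 6 of 7 neutrophil markers with a mean of at least 1 TPM in fat pad tumors were higher in liver. The counts that follow are of genes past the same minimum. In the longer lists, 6 of 25 oxidation and ketone genes were higher in treated liver tumors. So were 2 of 13 sterol efflux and LXR genes (Lcat, 5.19, and Nr1h3, 2.46), 2 of 20 fatty acid and triglyceride synthesis genes (Mlxipl, 2.70, and Fads2, 2.26) and 2 of 12 droplet genes, with 3.85 for G0s2, an inhibitor of Pnpla2. None of 22 sterol synthesis genes was called. Of all genes tested between treated sites, 6.65% were higher in liver. Without post_SC replicate 1 or 3, Fabp1 and Slc27a2 alone stayed called (adjusted p of lost calls 0.0556 to 0.201), and without post_SC replicate 2 Fabp5, Dgat2 and Lipc lost their calls (0.0512 to 0.0954). Fabp5 and Dgat2 lost theirs without post_Liver replicate 1, Fabp5 without replicate 4 and Dgat2 without replicate 5 (0.0539 to 0.0738). Ppara and Slc27a5 were called higher without post_Liver replicate 2 or 3 (adjusted p of 0.0267 to 0.0391), Ehhadh without post_Liver replicate 3 (2.43, adjusted p = 0.0483) and Lpl without post_SC replicate 2 (1.40, adjusted p = 0.0368).

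Some of the genes overlap others or have copies, and the deposited values do not tell how reads were divided, since no statement on strand is given in the sources used here. In the GENCODE annotation of GRCm38, Acadvl overlaps Dvl2 (chr11:70010183-70015411 for Acadvl), Hadha overlaps Garem2, and Srebf1 overlaps Rai1 (chr11:60199089-60222581 for Srebf1), each on the opposite strand, and Fabp5 has a named copy, Fabp5l2. The values of these 4 genes are uncertain to that extent. Cpt1a lies at chr19:3322334-3385733 on the plus strand and Fasn at chr11:120805846-120824547 on the minus strand, without such overlap.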

How the data were processed

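Poly(A) RNA libraries of 16 tumors were used, and the 38 genes and the pathway lists were chosen with earlier results of these data known. Per the submitters' processing notes, fastp and StringTie were used with GRCm38/mm10, with no roles or versions given. No table names its unit, so units were read from the values. The liver table deposited by the authors was read as FPKM, with column sums of 511645 to 547765. The fat pad table deposited by the authors was read as TPM, with each column summing to 1000000. The table of untreated libraries deposited by the authors was read as TPM shifted by a constant per gene and batch, treated here as a score, since 2382 genes lie below 0. The batches were inferred from these shifts and not from a label, and the table served as an alternative. Depth is unknown, so no counting interval can be given, and the number of libraries limits the precision.

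Comparisons across sites used TPM recomputed over the 17125 genes that the liver and fat pad tables share, and responses used each table as deposited. Date-like names (24 in the fat pad table) and Plin2, on more than 1 row, were left out. Genes with a mean of at least 1 were fitted as log2(value + 1) with limma 3.58.1 in R 4.3.3 (lmFit, eBayes with trend, two-sided), with group as the only term and calls where the Benjamini-Hochberg adjusted p was below 0.05. The fits were tested on simulated data with 200 changed genes. Relations to hepatocyte markers were tested by exact permutation with SciPy 1.17.1 and adjusted over 13556 genes with a mean of at least 1 TPM in liver libraries, a step added after seeing the data. Tables and plots were made with Python 3.11.15, pandas 2.3.3, NumPy 2.4.6 and matplotlib 3.10.9. Values per library are given for Cpt1a, Fasn and, within each function and comparison, up to 3 genes in order of p, with others added where libraries stood apart, and for each pathway list up to 2 called genes each way in order of p, except that some are not reported here. Coordinates are those of GENCODE on GRCm38, and sequences are those of RefSeq on GRCm38.p6. The alternatives were other scalings, pseudocounts, filters, weights, a replicate block, batches, hepatocyte covariates and leaving out each library. The average of treated liver replicates 2 and 3 was added after seeing the data.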

Additional observations from a re-analysis of the deposited data

Results flagged for a closer look

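The response to treatment differed between liver and fat pad tumors by limma's interaction test for 3 genes, with log2 differences (liver response minus fat pad response) of −4.12 for Fabp1, −1.46 for Hadh and −1.10 for Hadhb. Fabp1 was near 0 in all 6 fat pad libraries and could not fall there, so its value restates the fall in liver tumors. Hadh stood at 89.8 to 98.3 TPM in untreated and 114 to 139 TPM in treated fat pad tumors, and at 147 to 418 TPM in untreated and 110.2 to 170.5 TPM in treated liver tumors. Hadhb stood at 72.8 to 82.8 and 105 to 114 TPM in the former pair and at 102 to 164 and 81.9 to 92.0 TPM in the latter.

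Acadm in treated liver replicate 4 stood at 102 TPM, far from the other treated liver libraries (69.1 to 102 TPM over all 5). It was the 1 value set apart among 76 groups of values checked with Dixon's criterion on the log2 scale, and chance sets apart about 1 in 20 groups. The same library had the highest hepatocyte markers of its group, and the part of hepatocyte RNA in this value was not tested.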

How the results depend on the processing

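Of 47 calls of a gene in a comparison, none changed direction under any alternative run. Another 28 combinations of gene and comparison without a call changed sign in 78 values. Before treatment, the count of genes higher in liver was 3073 with median-of-ratios scaling. The count of lower genes was 2461 there, 2901 without hepatocyte genes in the total, 8081 with library weights, 1840 with the replicate block and 2728 within the batch. With median-of-ratios scaling, without hepatocyte genes and with the block, 0 of the 38 genes were lower. With the untreated table as deposited, which carries the batch constants, Scd1, Gpam, Hmgcs1 and Fdps lost their calls (adjusted p of 0.157 to 0.506). Leaving out each library in turn gave 1324 to 2275 genes higher and 799 to 6961 lower, with 15 to 28 and 0 to 1 of the 38. After treatment, 1403 genes were higher and 852 lower in liver with library weights, and 669 were lower with quantile normalization. Leaving out libraries gave 312 to 1101 higher and 93 to 422 lower, with 2 to 9 of the 38 genes higher.

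In fat pad tumors, 542 genes rose with library weights. With the replicate block 112 rose and 217 fell, with 0 and 3 of the 38, and without the mean-variance trend 0 of the 38 rose. Leaving out libraries gave 27 to 273 genes rising and 51 to 530 falling, with 0 to 2 and 0 to 5 of the 38. In liver tumors, genes rising and falling were 127 and 94 (2 of the 38 falling) with median-of-ratios scaling, and 191 rose with quantile normalization. They were 5497 and 1760 (33 of the 38) with library weights, 2435 and 1021 (29) with the replicate block, 59 and 19 (0) without untreated replicates 4 and 5, and 115 and 44 (1) with treated replicates 2 and 3 averaged, and 114 fell with the hepatocyte covariate. Leaving out libraries gave 82 to 2510 rising and 35 to 1022 falling, with 1 to 25 of the 38. For the difference of the responses, more positive and more negative genes were 187 with median-of-ratios scaling (1 of the 38 more negative), 4943 and 1609 (20) with library weights, 1603 and 522 (14) with the replicate block, 113 and 41 (1) without untreated liver replicates 4 and 5, and 189 and 68 (1) with the average, and 1 of the 38 was called with a pseudocount of 0.1. Leaving out libraries gave 70 to 2005 and 21 to 590, with 0 to 12 of the 38. Fabp1 and Hadh each lost the call of their response difference in 13 of the 16 omissions of 1 library (adjusted p of 0.0506 to 0.132). Over all alternatives, Acadvl lost its call in the liver response in 18 of 24 and Fabp5 its call between treated sites in 11 of 19. The estimation of library weights stopped before it converged, so values with them are uncertain. The cause of these shifts was not tested.

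The labels give the groups shared replicate numbers but no pairing. Deviations of same-numbered libraries had correlations of 0.132, −0.144 and −0.107 in fat pad and −0.124, 0.651, 0.055, 0.736 and 0.233 in liver tumors. Not every library correlated best with its own number, so the block rests on a number alone.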

Other observations

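The ratio of each gene to the hepatocyte markers separates some genes that otherwise follow those markers. Per 1000 TPM of hepatocyte markers, Fabp1 stood at 28.7 to 73.2 TPM in the 5 untreated and 1.76 to 13.1 TPM in the 5 treated liver libraries, without overlap. Slc27a2 (3.73 to 5.59 TPM before, 2.21 to 3.19 TPM after), Ppara (0.449 to 0.588 TPM before, 0.156 to 0.413 TPM after) and Scd1 (8.30 to 26.2 TPM before, 2.32 to 6.92 TPM after) did not overlap either, while each other gene of the list did. Bdh1 (0.824 to 1.53 TPM before, 0.312 to 1.68 TPM after) and Lipc (0.851 to 1.28 TPM before, 0.340 to 1.29 TPM after) overlapped, and treated replicates 2 and 3, with the fewest hepatocyte markers, had untreated-like ratios of both. Cpt1a, which fat pad tumors also express, stood at 0.798 to 1.94 TPM before and 0.904 to 11.4 TPM after, with the highest ratios in treated replicates 2 and 3. These ratios were not tested. They were not computed for genes outside the list, so the share of all genes without overlap is unknown.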
